A study of Mus musculus with 8 samples.

Results

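Hemoglobin RNA in a heart comes mostly with the blood it holds. The genes described here are the 4 adult globins (Hba-a1, Hba-a2, Hbb-b1, Hbb-b2), the 3 embryonic globins (Hba-x, Hbb-bh1, Hbb-y), the heme enzyme gene Alas2 and the band 3 gene Slc4a1. These 9 genes were chosen by symbol, and all 9 had a locus among the 39614 annotated loci of 80155 loci in all. Where several loci carried a symbol, which among the 9 was the case for Alas2 alone (4 loci), the locus with the highest mean was used. Male Hsd:ICR(CD-1) mice, an outbred stock with no transgene or treatment named in the labels, were compared at postnatal day 1 (P1, 4 hearts) and postnatal day 7 (P7, 4 hearts). Each library came from the ribodepleted RNA of 1 whole heart without its atrial appendages. The sources used here do not say whether blood was rinsed out before freezing, so the amount of blood in each heart is not known. In such bulk samples, fewer red cells and less RNA per red cell cannot be told apart.

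An adult hemoglobin molecule pairs alpha-like with beta-like globin chains, each of which holds a heme. In the mouse the alpha-like genes lie together on chromosome 11 and the beta-like genes on chromosome 7, and in both clusters the embryonic genes serve the primitive red cells of the yolk sac while the adult genes serve the definitive red cells of fetal liver and bone marrow. Mature mammalian red cells have no nucleus, and the RNA in circulating blood is mostly that of reticulocytes, the youngest red cells, which carry globin RNA made before the nucleus was lost.

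The positions of the loci, in GRCm38, were chr11:32276400-32278116 for Hba-x, chr11:32283511-32284465 for Hba-a1 and chr11:32296489-32297298 for Hba-a2, all on the plus strand. The beta-like loci were chr7:103812524-103813996 for Hbb-b2, chr7:103826534-103828096 for Hbb-b1, chr7:103841636-103843164 for Hbb-bh1 and chr7:103851745-103853240 for Hbb-y, all on the minus strand. GENCODE M21 gives the genes at the positions of Hbb-b1 and Hbb-b2 the names Hbb-bs and Hbb-bt. Which beta-like haplotype these outbred mice carry is not given in the sources used here and may differ from the reference, so the values of Hbb-b1 and Hbb-b2 are those of fragments assigned to these reference loci. Slc4a1 spanned chr11:102348795-102366203 on the minus strand. The Alas2 locus has the bounds chrX:150519519-150643878 in the files, a span that also covers Apex2 and Pfkfb1. These 2 genes have loci and FPKM values of their own, listed with the same bounds. The Alas2 gene itself is chrX:150547375-150570638 on the plus strand in GENCODE. All are protein-coding genes, and an FPKM value here sums over the exons of a whole locus.

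The proximal promoters show which letters the coexpressed adult genes share and where the embryonic ones depart from them. RefSeq (GRCm38.p6) promoters matched 7 of the 9 genes, and in each the 120 bases before the annotated start were searched on both strands for 4 motifs. The letters CACCC, known from binding sites of Krüppel-like factors, were found in 7 of the 7 and in 31.7% of all 32851 promoters of this length. The letters CCAAT, read by CCAAT-binding factors, were found in 5 of the 7 and in 21.3% of all. The TATA box letters TATAA were found in 5 of the 7 and in 11.8% of all. The letters GATAA, read by GATA factors, were found in 2 of the 7, Hba-x and Alas2, and in 10.5% of all. A match is a run of letters and not a measured binding site. The stretch from 100 to 71 bases before the start is printed 5′ to 3′ on the gene's strand, with matches on either strand in capitals (on the opposite strand GATAA appears as TTATC, whereas CCAAT appears there as ATTGG):
Hba-a2 (chr11:32296392-32296421, plus): acaaaccagCCAATgagaactgctccaagg
Hbb-b1 (chr7:103827999-103828028, minus): cgtagagccaCACCCtggtaagggCCAATc
Hbb-b2 (chr7:103813994-103814023, minus): ctgcagggtaaCACCCtggcATTGGCCAAT
Hba-x (chr11:32276500-32276529, plus): ggctcCACCCtgcaagccccctcccctctc
Hbb-y (chr7:103853278-103853307, minus): accacgggtcaggctgaCCAATagcttcaa
Alas2 (chrX:150547317-150547346, plus): gactactttgctttTTATCtttagcagagg

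The stretch from 40 to 11 bases before the start held TATAA in the 4 adult globins and Hba-x but not in Hbb-y or Alas2 (GGGTG is CACCC on the opposite strand):
Hba-a2 (chr11:32296452-32296481, plus): ttggagggcaTATAAgtgctacttgctgca
Hbb-b1 (chr7:103827939-103827968, minus): agggcagagcaTATAAggtgaggtaggatc
Hbb-b2 (chr7:103813934-103813963, minus): cagcATTGGgtaTATAAagctgagcagggt
Hba-x (chr11:32276560-32276589, plus): tgaccatgtgtaTATAAaggagacactggg
Hbb-y (chr7:103853218-103853247, minus): tgtctgtgaagcataaaaggccaccacttc
Alas2 (chrX:150547377-150547406, plus): GGGTGGGGTGGGGTGggcggggctgagcag
The Hba-a1 promoter is left out of both sets because it shares an unbroken run of 117 of these 120 bases with that of Hba-a2, offset by 3 bases.

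Expression is given as FPKM, a fragment count divided by transcript length and by sequencing depth, so that levels can be set side by side between genes. The labelled tissue was checked with 10 cardiomyocyte genes, with a summed level between 22861 and 39540 FPKM at P1 and between 31196 and 47404 FPKM at P7. All 7 globins together made up 0.290% to 0.713% of the FPKM of annotated loci in P1 and 0.564% to 0.820% in P7. P1 replicate 2 had the lowest level of all 8 hearts for each adult globin and for Alas2. The levels fell in the order Hba-a2, Hba-a1, Hbb-b1, Hbb-b2, Alas2, Slc4a1, Hbb-y, Hba-x and Hbb-bh1 by their mean over the 8 hearts. Each of the first 5 lay above the next in 8 of 8 hearts, and Slc4a1 lay above Hbb-y in 7 of 8. The 3 embryonic globins could not be ordered. Hbb-y lay above Hba-x in 4 of 8 hearts and Hba-x above Hbb-bh1 in 2 of 8, with ties at 0 among the other hearts in both comparisons.

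**Figure D1:**
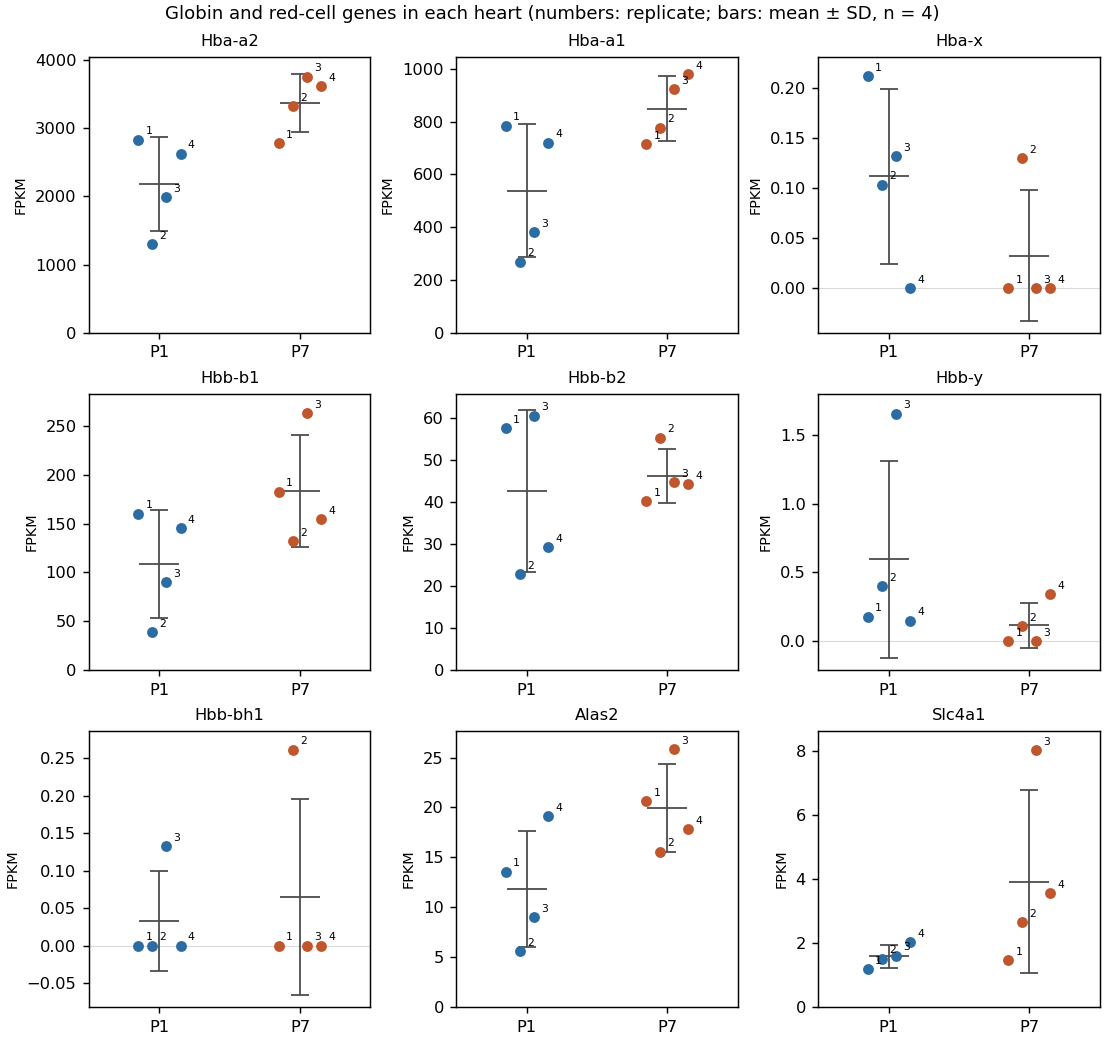
FPKM (vertical axis, linear) of each of the 9 genes in the 4 P1 hearts (blue) and the 4 P7 hearts (orange), with the replicate number beside each point and the mean ± SD as a bar. Hba-a2 and Hba-a1 are the highest, P1 replicate 2 is the lowest heart for the adult globins and Alas2, and the 3 embryonic globins stay below 2 FPKM.

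The adult globins and both red-cell genes had higher mean levels in P7, but the P1 and P7 hearts overlapped for each of the 9 genes and none passed the test between stages. Of the 9, 7 reached 1 FPKM in at least 1 heart and were tested, while Hba-x and Hbb-bh1 did not. By limma on log2(FPKM + 1) over all 43172 tested loci, where a call needed a p under 0.05 after Benjamini-Hochberg adjustment together with means that differed by a factor of 1.5 or more, 0 of the 7 were called, against a background of 3.82% of all tested loci and 8.14% of the 17960 annotated ones. At an unadjusted p under 0.05, 5 of the 7 passed, beside 18.5% of all tested loci and 29.7% of the annotated ones. In 0 of the 9 did every P7 heart lie above every P1 heart, which was so for 8.5% of all tested loci and 17.3% of the annotated ones. The median log2 fold change was 0.77 over the 7 genes and 0.19 over the tested annotated loci, so that a shift of 0.19 towards P7 was common to the annotated loci.

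Hba-a2, the most abundant of the alpha-like genes, stood at 2834, 1299, 1987 and 2625 FPKM in P1 replicates 1 to 4 and at 2784, 3324, 3759 and 3614 FPKM in P7 replicates 1 to 4. Thus 3 P7 hearts lay above all P1 hearts, and the remaining one lay below the highest P1 heart only. The log2 fold change was 0.68 ± 0.28 (SE), with an adjusted p of 0.228 by limma. Its near-identical neighbour Hba-a1 read 784, 269, 381 and 720 FPKM in P1 and 715, 777, 923 and 979 FPKM in P7. Here 2 P7 hearts exceeded every P1 heart, with a log2 fold change of 0.78 ± 0.32 (SE) and an adjusted p of 0.226 by limma. The ratio of Hba-a2 to Hba-a1 averaged 4.33 ± 0.82 over the P1 hearts and 3.98 ± 0.25 over the P7 hearts (SD, n = 4 each) and overlapped between the stages. The 2 genes share 339 windows of 100 bases in their GENCODE transcripts, 74.5% of those of Hba-a2 and 56.5% of those of Hba-a1, so how fragments were divided between them is uncertain. Without P1 replicate 2 the log2 fold changes of Hba-a2 and Hba-a1 were 0.45 and 0.49, and with GC correction they were 0.32 and 0.41; that of Hba-a2 was 0.43 with median ratios.

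Hbb-b1, the adult beta-like gene with the higher FPKM in each heart, measured 160, 38.9, 89.9 and 145 FPKM in P1 and 182, 132, 263 and 155 FPKM in P7. The stages overlapped, and 2 P7 hearts stood above every P1 heart. Its log2 fold change was 0.89 ± 0.39 (SE) with an adjusted p of 0.245 by limma, and it was 0.47 without P1 replicate 2. Hbb-b2 showed 57.6, 22.8, 60.7 and 29.3 FPKM in P1 and 40.3, 55.4, 44.8 and 44.3 FPKM in P7. The highest and the lowest value of this gene were both in P1 hearts, so the P7 values fell inside the P1 range. Its log2 fold change of 0.22 ± 0.29 (SE, adjusted p = 0.654 by limma) lay next to the median of all annotated loci, and it turned to -0.02 when each heart was scaled by median ratios, to -0.003 after quantile normalization and to -0.03 without P1 replicate 2. The 2 beta-like transcripts share 331 windows of 100 bases, 62.6% of those of Hbb-b1 and 54.8% of those of Hbb-b2, so their split is uncertain as well.

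Alas2 codes for the red-cell form of 5-aminolevulinate synthase, the first enzyme of heme synthesis. It measured 13.6, 5.59, 9.01 and 19.1 FPKM in P1 and 20.6, 15.6, 25.8 and 17.8 FPKM in P7. All P7 hearts lay above 3 of the P1 hearts, and P1 replicate 4 reached into the P7 range. The log2 fold change was 0.81 ± 0.30 (SE), with an adjusted p of 0.180 by limma, and it was past the threshold without P1 replicate 4 (1.06, adjusted p = 0.0484) and with sample quality weights (1.06, adjusted p = 0.0433). Without P1 replicate 2 it was 0.53. The adjusted p ranged from 0.0433 to 0.425 over all alternatives tried for this gene.

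Slc4a1 codes for band 3, the chloride and bicarbonate exchanger of the red-cell membrane. It gave 1.17, 1.50, 1.60 and 2.03 FPKM in P1 and 1.46, 2.64, 8.01 and 3.54 FPKM in P7. The P1 values were close together, 3 of the P7 hearts exceeded them all, and P7 replicate 3 was highest while P7 replicate 1 lay inside the P1 range. The log2 fold change was 0.77 ± 0.32 (SE) with an adjusted p of 0.226 by limma. It was 0.43 without P7 replicate 3 and 0.50 with GC correction.

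**Figure D2:**
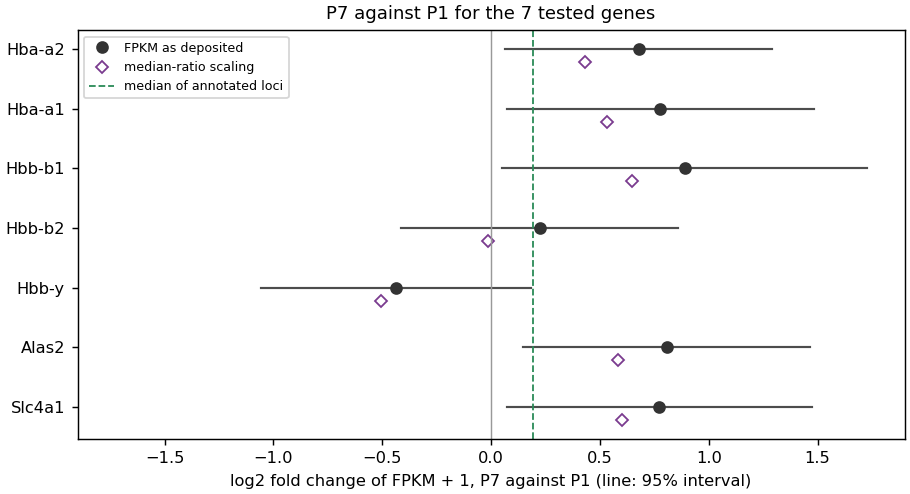
Log2 fold change of FPKM + 1 between P7 and P1 (horizontal axis) for the 7 tested genes, as points with 95% intervals for the deposited FPKM and as diamonds for hearts scaled by median ratios; the dashed line is the median of the tested annotated loci, at 0.19. Hbb-y lies below 0 and Hbb-b2 close to the dashed line, while the other 5 genes lie between 0.68 and 0.89 and move down to between 0.43 and 0.65 with median ratios.

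RNA of the embryonic globins was at or near the limit of detection in all hearts but P1 replicate 3, which held Hbb-y above it. That library stood apart from the others in the whole table as well, with 28662 loci at 1 FPKM or more against 20269 to 22292 in the other 7 hearts, and the part of this in its Hbb-y value was not tested. Hbb-y, the embryonic epsilon-type gene, was listed at 0.176, 0.397, 1.65 and 0.148 FPKM in P1 and at 0, 0.109, 0 and 0.342 FPKM in P7. It had a value above 0 in all P1 hearts and in 2 of the P7 hearts, and P1 replicate 3 was the only heart above 1 FPKM. Hba-x, the zeta-type gene, was listed at 0.212, 0.103, 0.132 and 0 FPKM in P1 and at 0, 0.130, 0 and 0 FPKM in P7. Hbb-bh1, another embryonic beta-like gene, was listed at 0.133 FPKM in P1 replicate 3, at 0.262 FPKM in P7 replicate 2 and at 0 in the other 6 hearts. Across its 8 hearts Hbb-y had a log2 fold change of -0.44 ± 0.29 (SE, adjusted p = 0.413 by limma), which was -0.16 without P1 replicate 3 and -1.50 with a pseudocount of 0.1.

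The files hold FPKM and no counts, but low values rise in steps. In 184 unannotated loci with 1 start site and nearly the same length as Hbb-y (661 bases), the lowest step was 0.0883 to 0.148 FPKM depending on the heart, and it was taken as 1 fragment. In these steps Hbb-y corresponded to 2, 3, 15 and 1 fragments in the P1 hearts and to 0, 1, 0 and 3 fragments in the P7 hearts, each within 0.03 of a whole number. Of 25 fragments in all, 15 were thus in 1 heart. The exact Poisson interval (95%) was 8.40 to 24.7 fragments in that heart and 0 to 3.69 fragments in a heart with none. Hbb-bh1 corresponded to about 1 fragment in P1 and about 2 in P7, and Hba-x to about 4 and 1, with values up to 0.18 and 0.35 from a whole number. Such intervals cover counting error only. No 100-base window of the 3 embryonic transcripts occurs unchanged in the GENCODE transcript of another globin described here. Matches with mismatches and further globin genes were not searched, so stray fragments of other globins cannot be judged from these windows.

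The embryonic share answers whether the balance of embryonic and adult globin RNA differed between the stages, and as a ratio within a heart it is free of the scaling of the library. Of the beta-like FPKM, Hbb-y and Hbb-bh1 made up 0.0809%, 0.639%, 1.17% and 0.0847% in P1 replicates 1 to 4 and 0%, 0.197%, 0% and 0.172% in P7 replicates 1 to 4. P1 replicates 2 and 3 stood above all P7 hearts, whereas P1 replicates 1 and 4 fell inside the P7 range. The share averaged 0.494% ± 0.523 over the P1 hearts and 0.0922% ± 0.107 over the P7 hearts (SD, n = 4 each), and the difference did not pass (exact two-sided permutation test, p = 0.286; the smallest p that 70 assignments allow is 0.0286). Without P1 replicate 3 the difference shrank from -0.402 to -0.176 percentage points. In P7 replicates 1 and 3, which were at 0, the limit of 3 fragments of Hbb-y corresponded to 0.186% and 0.122%. In P1 replicate 2 that limit was 0.639%, the same as its value, so its share rests on 3 fragments.

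Of the alpha-like FPKM, Hba-x made up 0.00585%, 0.00658%, 0.00557% and 0% in the P1 hearts and 0%, 0.00317%, 0% and 0% in the P7 hearts. These shares rest on 0 to about 2 fragments per heart, and the difference was not detectable at this depth (exact permutation test, p = 0.143). The sum of the 3 embryonic globins relative to the adult globins ranged from 0.00420% to 0.0762% among P1 hearts and from 0% to 0.0117% among P7 hearts.

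The summed adult globins were 1.55-fold higher in P7 by their means, without passing the test. They came to 3836, 1630, 2519 and 3519 FPKM in P1 and to 3722, 4289, 4990 and 4792 FPKM in P7. In P7 replicates 2, 3 and 4 the sum exceeded every P1 heart, and P7 replicate 1 lay just below P1 replicate 1. The means were 2876 ± 1003 FPKM (SD, n = 4) and 4448 ± 567 FPKM (SD, n = 4), which differed by 1572 FPKM (exact permutation test, p = 0.0571). Without P1 replicate 1 the p was 0.0286, the smallest possible with 7 hearts left being the same value, and with median-ratio scaling the difference was 1017 FPKM (exact permutation test, p = 0.114).

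Alpha-like FPKM was at least 15.2 times beta-like FPKM in each heart. The alpha-like genes held 94.3%, 96.2%, 94.0% and 95.04% of the globin FPKM in P1 and 94.0%, 95.6%, 93.8% and 95.8% in P7. The stages covered the same range, with 94.9% ± 0.98 (SD, n = 4) and 94.8% ± 1.05 (SD, n = 4) and an exact permutation p of 0.971. The ratio of adult alpha-like to adult beta-like FPKM lay between 15.7 and 25.4 at P1 and between 15.2 and 23.1 at P7. Since fragments that match the pairs of near-identical genes may have been counted differently in the 2 clusters, this ratio is one of FPKM and not of chains; how far such counting set it was not tested. The order of the pair within the beta-like cluster was less even, with Hbb-b1 at 1.48 to 4.96 times Hbb-b2 in P1 and 2.38 to 5.88 times in P7.

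**Figure D3:**
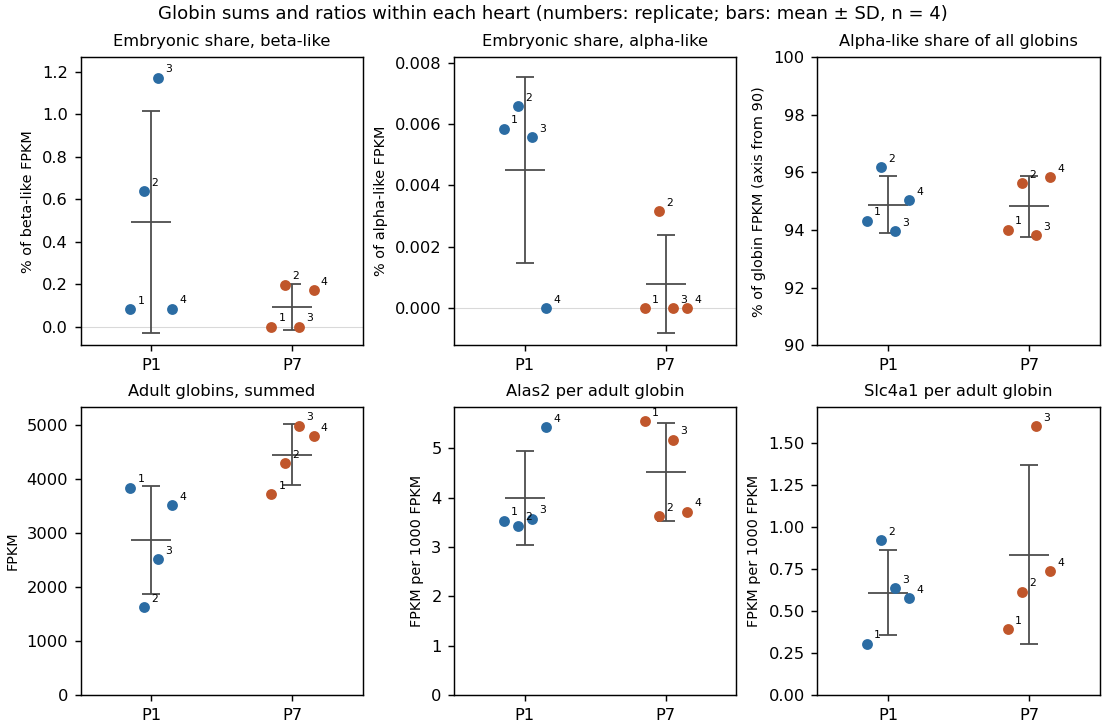
Globin sums and ratios within each heart (vertical axes with their units; the axis of the alpha-like share starts at 90%) for 4 P1 hearts (blue) and 4 P7 hearts (orange), with replicate numbers and mean ± SD. The embryonic beta-like share is highest in P1 replicates 3 and 2, with about 15 and 3 fragments of Hbb-y. The alpha-like share stays between 93.8% and 96.2% in all 8 hearts, and the adult globin sum is lowest in P1 replicate 2.

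Alas2 and Slc4a1 were then set against the adult globins of the same heart. Per 1000 FPKM of adult globin, Alas2 measured 3.54, 3.43, 3.57 and 5.43 FPKM in P1 and 5.55, 3.63, 5.18 and 3.72 FPKM in P7. Both stages thus held hearts near 3.5 and hearts above 5, and the means of 3.99 ± 0.96 and 4.52 ± 0.99 (SD, n = 4 each) did not differ beyond this spread (exact permutation test, p = 0.371). When all 4 loci named Alas2 were summed, the difference between the stages turned from 0.525 to -1.91 (exact permutation test, p = 0.143). The other loci of this name held 1.60 to 8.37 FPKM each. They share the bounds of the span with Apex2 and Pfkfb1, and whether their RNA is that of Alas2 was not tested. Slc4a1 per 1000 FPKM of adult globin was 0.306, 0.923, 0.637 and 0.576 FPKM in P1 and 0.391, 0.616, 1.60 and 0.739 FPKM in P7. P7 replicate 3 was the highest, and without it the difference of 0.227 became -0.03 (exact permutation test with all hearts, p = 0.571). Over the 6 sums and ratios tested in this way, the adjusted p was 0.343 to 0.971.

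Across the 8 hearts, Alas2 rose with the summed adult globins on the log2 scale, with Pearson's r = 0.91 (exact permutation p = 0.00432, adjusted over the 2 genes 0.00863) and Spearman's rho = 0.64 (exact permutation p = 0.0962, adjusted 0.115). Without the 2 hearts farthest from the median globin sum, r was 0.36, so the relation rests on those hearts. With median-ratio scaling r was 0.80 (exact permutation p = 0.0329, adjusted 0.0658) and rho 0.50 (exact permutation p = 0.216), so after adjustment the relation did not pass on that scale. For Slc4a1, r was 0.58 (exact permutation p = 0.138) and rho 0.62 (exact permutation p = 0.115, adjusted 0.115); without the 2 farthest hearts r was 0.86, and with median-ratio scaling over all 8 it was 0.41. Each stage has 4 hearts, too few for a relation within a stage; the deviations from the stage means had r = 0.84 for Alas2 and 0.28 for Slc4a1.

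**Figure D4:**
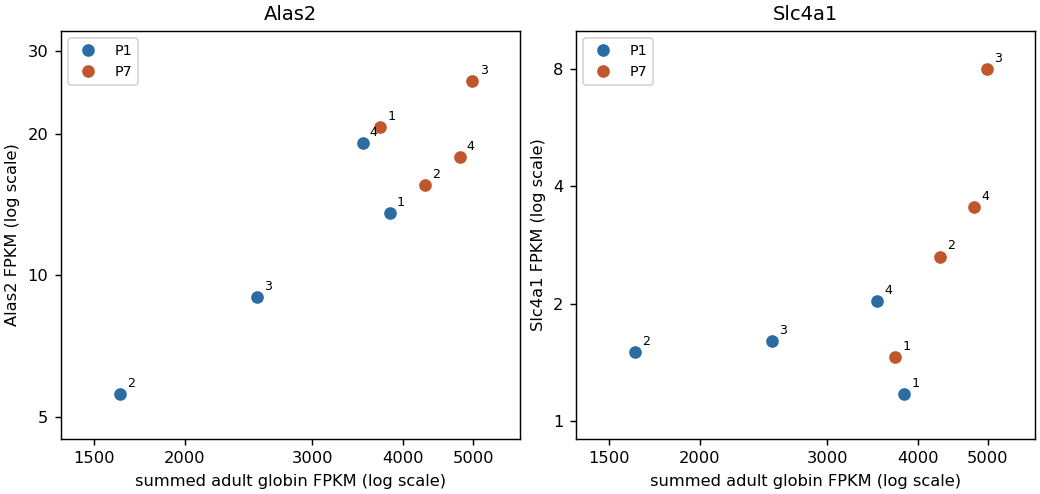
FPKM of Alas2 (left) and Slc4a1 (right) against the summed adult globin FPKM of the same heart, on log axes, for P1 (blue) and P7 (orange) hearts with replicate numbers. Alas2 is low in P1 replicates 2 and 3, the hearts with the lowest globin sums, and Slc4a1 is highest in P7 replicate 3.

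The 10 genes most like Alas2 over the 8 hearts, by Pearson's r of log2(FPKM + 1) among 14872 annotated loci, were Sel1l, Dysf, Bik, Gm11052, Gm8730, B9d1, Ppp4r1, Prkce, Galnt4 and St3gal4, with r from 0.97 to 0.99. None of them was in the red-cell lists. Between the stages 0 of the 10 were called, beside 8.14% of the tested annotated loci. Alas2 was not called either, and the 10 were picked in these same hearts for its profile. The 0 calls thus follow from the choice and are no separate result. The red-cell gene nearest to Alas2 was Sox6, at rank 50, followed by Cat at rank 84. These ranks describe 8 hearts that share 1 scaling per library.

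Other genes of the red-cell program were taken from 4 lists, for heme synthesis, the red-cell membrane, erythroid transcription factors, and red-cell enzymes and maturation. Without Alas2 and Slc4a1 they held 56 genes, of which 53 had a locus and 40 were tested. Of the 40, 7 were called, all higher in P7 (17.5%, beside 7.74% of the annotated loci called higher), and the median log2 fold change of the 40 was 0.37. In 14 of the 40 every P7 heart lay above every P1 heart, as in 17.3% of the tested annotated loci (35.0% of the 40). The 7 were Alad and Ppox of heme synthesis, Sptb and Ank1 of the membrane skeleton, and Lmo2, Ldb1 and Lyl1 among the transcription factors. Leaving out P1 replicate 2 or 3 or P7 replicate 1 or 3 left 0 calls, leaving out P1 replicate 1 or P7 replicate 2 or 4 left 2 to 3. Leaving out P1 replicate 4 gave 11. The share of all tested loci called without these hearts is not given here, so whether such moves are particular to these genes was not tested.

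As background, none of these 7 is particular to red cells. Alad and Ppox make heme in all nucleated cells, Ank1 and Sptb have forms in striated muscle, Lmo2 and Lyl1 are also expressed in endothelium, and Ldb1 is a widely expressed cofactor. Alad, the second enzyme of heme synthesis, had 4.12 to 10.4 FPKM in P1 and 17.4 to 27.7 FPKM in P7, with a log2 fold change of 1.55 and an adjusted p of 0.0133 by limma. Ank1, which ties band 3 to the spectrin skeleton, had 20.5 to 32.6 FPKM in P1 and 56.1 to 74.7 FPKM in P7. For these, as for the other 5, the P1 and P7 ranges did not meet. Among 6 endothelial markers measured beside them, Cdh5 and Tie1 were called higher in P7 too, as were 7.74% of the annotated loci. Emcn, which was not called, had all P7 values below all P1 values (log2 fold change -0.43). The part of endothelial cells in the 7 calls was not tested.

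Genes that define nucleated red-cell precursors were close to 0 in hearts of both stages. Gata1 and Klf1, the main erythroid transcription factors, reached at most 0.25 and 0.52 FPKM, Rhag at most 0.33 FPKM and Hemgn at most 0.28 FPKM. Fech, the last enzyme of heme synthesis, went from 9.90 to 21.7 FPKM in P1 to 22.3 to 37.9 FPKM in P7 with no overlap, at an adjusted p of 0.0688 by limma. Prdx2, an abundant red-cell peroxidase that other cells make as well, had 330 to 446 FPKM in P1 and 465 to 703 FPKM in P7 and was not called (adjusted p = 0.236 by limma).

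**Figure D5:**
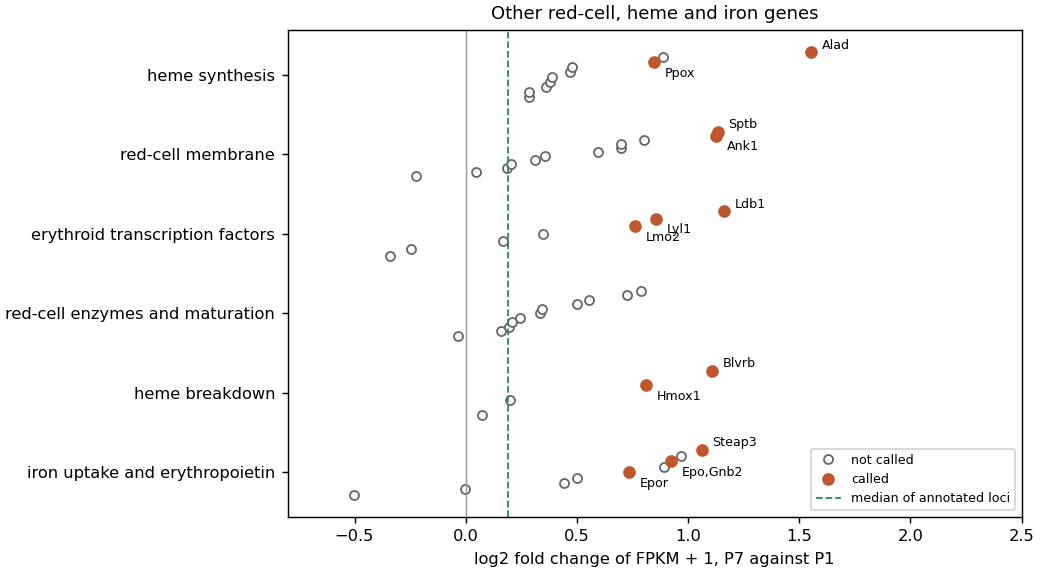
Log2 fold change of FPKM + 1 between P7 and P1 (horizontal axis) for the tested genes of 6 lists (rows), without Alas2 and Slc4a1; filled points with names were called, open points were not. Called genes were found in 5 of the 6 lists and lie to the right of the dashed line, the median of the annotated loci at 0.19; the red-cell enzymes have none.

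Heme breakdown and iron handling were measured beside these. The counts stand beside 7.74% of the annotated loci called higher in P7. Of 4 genes of heme breakdown, Hmox1 and Blvrb were called higher in P7. Of 9 tested genes of iron uptake and erythropoietin signalling, 3 loci were called higher, Steap3, Epor and a locus that joins Epo with Gnb2 and cannot be assigned to Epo. Epor, the erythropoietin receptor, had 0.62 to 0.97 FPKM in P1 and 1.74 to 2.35 FPKM in P7. Tfrc, the transferrin receptor by which red-cell precursors and other cells take up iron, had 86.6 to 112 FPKM in P1 and 41.3 to 108 FPKM in P7 and was not called.

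Of the globins made outside red cells, both that were tested were called higher in P7, beside 7.74% of the annotated loci called higher. Myoglobin (Mb), the oxygen-binding globin of heart and skeletal muscle, rose from 1917 to 2720 FPKM in P1 to 4911 to 7935 FPKM in P7, with a log2 fold change of 1.45 and an adjusted p of 0.0141 by limma. Cytoglobin (Cygb) rose from 10.4 to 12.3 FPKM to 34.3 to 42.5 FPKM, with a log2 fold change of 1.68. In each P7 heart Mb was thus above the adult red-cell globins summed, and in P1 replicates 1, 3 and 4 it was below them. The difference of these changes from those of the red-cell globins was not tested.

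Among markers of other blood cells, 1 gene was called lower and 1 locus higher in P7. Of all tested loci, 0.371% were called lower and 3.45% higher. Among the 17960 annotated ones, 72 were called lower and 7.74% higher. Of 10 neutrophil genes 5 were tested, their summed level lay between 16.8 and 44.1 FPKM at P1 and between 10.6 and 27.8 FPKM at P7, and Retnlg was called lower in P7. Of 10 platelet genes 5 were tested, with sums of 24.1 to 43.8 FPKM in P1 and 23.2 to 37.7 FPKM in P7. The 1 call among them was a locus joining Gp1bb with Sept5. Platelet factor 4 (Pf4), the highest of them, had 16.2 to 33.2 FPKM in P1 and 14.6 to 26.5 FPKM in P7 and was not called. Ppbp had 1.22 to 6.02 FPKM in P1 and 0.178 to 0.939 FPKM in P7, with no overlap. It was not called either (log2 fold change -1.03, adjusted p = 0.114 by limma), and 3 of the 5 tested platelet genes had a positive log2 fold change. P1 replicate 3, the heart with most Hbb-y, had the highest Pf4 and Ppbp of the P1 hearts but the lowest Gp1ba, and the part of its blood cells in the Hbb-y value was not tested.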

How the data were processed

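RNA-seq was made from 4 P1 and 4 P7 hearts, 1 library per heart. Per the labels and the study's methods, the reads were mapped to GRCm38 with Ensembl annotation; the aligner is not given in the sources used here. The authors deposited FPKM per locus. The first base of a locus is numbered from 0 in the files and from 1 here. The files hold no counts, so the depth of each heart was judged here only from the steps of low values. The study also reports a total of reads and a mapping summary for each sample, which were not used here.

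Loci that reached 1 FPKM in any heart were compared with limma (version 3.58.1, R 4.3.3; lmFit, eBayes with trend, no covariates) on log2(FPKM + 1), which understates changes of low genes. The Benjamini-Hochberg adjustment ran over 43172 loci. A call needed an adjusted p under 0.05 and means that differed by a factor of 1.5 or more. Sums and ratios within a heart were compared with exact two-sided permutation tests in Python 3.11.15 with numpy 2.4.6, pandas 2.3.3 and scipy 1.17.1. The scripts were tested on simulated data. Alternatives were other pseudocounts, filters, scalings, weights and a GC correction, a replicate block, and each heart left out. P-values measure the spread between these hearts. The study's methods give 4 hearts per stage, and the labels number them as replicates.

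The genes and lists were chosen with earlier results of these data known. Of 140 genes in 16 lists, 135 had a locus. Named were the 9 genes, list genes that were called or high, and the 10 loci most like Alas2; further list genes were named after their values were seen. Lymphocyte and fibroblast markers were measured too. Of 2 tested lymphocyte loci 0 were called, and 1 of them joins Rag1 with B230118H07Rik and cannot be assigned to Rag1. Of 6 fibroblast genes 4 were called, all 4 higher in P7, beside 7.74% of the annotated loci called higher.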

Additional observations from a re-analysis of the deposited data

Results flagged for a closer look

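In groups of 4 hearts, a heart was singled out where its gap to the nearest other heart took up most of the group's range. The gap was 0.835 of the range or more in those singled out. Chance was taken to do so in about 1 of 20 groups, and 7 of the 30 groups looked at were singled out. That rate does not hold where all hearts but 1 are at 0, which fixes the gap at 1 of the range. Nor does it hold for groups that share their values. For Hbb-y in P1, replicate 3 (1.65 FPKM) stood apart, with a gap of 0.835 of the range. For Alas2 per 1000 FPKM of adult globin in P1, replicate 4 (5.43) stood apart, with 0.928 of the range. The remaining 5 rest on hearts with 0 to about 2 fragments. Hbb-bh1 was above 0 in P1 replicate 3 alone and in P7 replicate 2 alone, and Hba-x, and with it the embryonic share of alpha-like FPKM, in P7 replicate 2 alone among P7 hearts (a gap of 1 of the range in each). In P1 the embryonic share of alpha-like FPKM was 0 in replicate 4, with a gap of 0.845 of the range.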

How the results depend on the processing

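The 0 calls among the 7 tested genes became 1, Alas2, with sample quality weights and without P1 replicate 4; leaving out single hearts gave 0 to 1 calls. Of 125 values of single genes under alternatives, 120 kept their direction and their side of the threshold. The others were the 2 of Alas2 and the 3 reversals of the log2 fold change of Hbb-b2 (-0.016 with median ratios, -0.0030 with quantile normalization, and -0.029 without P1 replicate 2, in a range up to 0.43 without other hearts). The 7 calls among the other red-cell genes became 1 with no filter, 11 with at least 1 FPKM in every heart (30 tested), 3 when scaled to the total without globins, 4 with the replicate block, 14 with sample quality weights and 1 with GC correction, and 0 to 11 when single hearts were left out; they were 0 without P1 replicate 2, P1 replicate 3, P7 replicate 1 or P7 replicate 3. The share of all tested loci called under each of these settings is not given here, and the cause was not tested. For the 6 sums and ratios, the difference in summed adult globins was 1157 to 1892 FPKM without single hearts. The difference in the alpha-like share was 0.414 percentage points with quantile normalization and -0.390 to 0.386 without single hearts, with p of 0.571 or more. Alas2 per adult globin reversed to -1.91 with all loci summed (exact permutation test, p = 0.143). Slc4a1 per adult globin ranged from -0.028 to 0.376 without single hearts. Replicate numbers did not pair the hearts, with correlations of deviations by number of -0.28 to 0.22. With a replicate block over the 4 pairs the adjusted p of the 7 genes was 0.132 to 0.680, and the p of the summed adult globins was 0.250 (smallest possible 0.125). The depth limits the embryonic globins most.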
